A study of Homo sapiens with 3 samples.

Results

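The genes of the DNA replication machinery were followed through 2 histone marks in ALL-SIL, an established human line of T-cell acute lymphoblastic leukaemia. The 41 genes were taken as a named list of replication factors, from 20037 protein-coding genes in the RefSeq annotation of GRCh38. They were sorted by role into 15 licensing genes (ORC1, ORC2, ORC3, ORC4, ORC5, ORC6, CDC6, CDT1, GMNN and MCM2 to MCM7), 22 fork genes and 4 nucleotide supply genes (RRM1, RRM2, TYMS and TK1). The study comprised an H3K4me3 ChIP-seq library, an H3K4me1 ChIP-seq library and the input DNA both were called against, all from the same line, with no treatment named in the labels. Each had 1 library, so no value has a replicate error and no difference between genes was tested; intervals on shares cover counting error only. After filtering, 30823016 tags remained for H3K4me3, 34813455 for H3K4me1 and 18859011 for the input, and the authors' lists held 11100 H3K4me3 and 62087 H3K4me1 peaks. As a check of the label, 7 of 9 T-lineage markers (CD3D, CD3E, CD3G, CD7, LCK, BCL11B and CD5, not PTCRA or CD2) had H3K4me3 at an end or inside the gene, against 53.4% of all protein-coding genes. CD3D and CD3G were counted through 1 shared peak. H3K4me3 was likewise at an end or inside the gene at 2 of 5 B-lineage markers (PAX5 and CD79B) and 0 of 5 myeloid markers.

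Replication starts at origins. The origin recognition complex binds DNA in G1 phase and, with CDC6 and CDT1, loads the ring-shaped MCM2-7 helicase, a step called licensing that GMNN (geminin) blocks later in the cycle. The kinase pair CDC7 and DBF4, with MCM10, CDC45 and the GINS complex, then turns the loaded helicase into a moving fork, where polymerases copy both strands from precursors that ribonucleotide reductase, thymidylate synthase and thymidine kinase help to supply. Many of these genes are textbook targets of E2F factors, which switch on S-phase genes. H3K4me3 marks the starts of active or poised genes, and H3K4me1 marks promoter flanks and enhancers.

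The 300 bases around the start (250 before, 50 after) are shown for 8 genes, from RefSeq promoters of GRCh38.p14, each read 5′ to 3′ in the direction of transcription. GMNN, CDC45 and RRM2 had the longest H3K4me3 peak of their role. CDC6, MCM2, MCM6, MCM7 and POLA1 were picked among the genes with an E2F word, and MCM7 also shares its promoter with a neighbour. Capitals mark E2F words, which are TTTCCCGC, TTTCGCGC, TTTGCCGC or TTTGGCGC on either strand. The GMNN stretch lies at chr6:24775163-24775462 (plus strand), CDC45 at chr22:19479670-19479969 (plus), RRM2 at chr2:10122489-10122788 (plus), CDC6 at chr17:40287629-40287928 (plus), MCM2 at chr3:127598161-127598460 (plus), MCM6 at chr2:135876394-135876693 (minus), MCM7 at chr7:100101348-100101647 (minus) and POLA1 at chrX:24693668-24693967 (plus).
GMNN: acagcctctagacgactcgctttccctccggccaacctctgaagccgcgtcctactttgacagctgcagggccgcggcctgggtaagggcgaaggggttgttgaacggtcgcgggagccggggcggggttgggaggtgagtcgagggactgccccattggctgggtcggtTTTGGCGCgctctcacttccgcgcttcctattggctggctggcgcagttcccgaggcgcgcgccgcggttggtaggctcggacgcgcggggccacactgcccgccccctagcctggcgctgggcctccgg
CDC45: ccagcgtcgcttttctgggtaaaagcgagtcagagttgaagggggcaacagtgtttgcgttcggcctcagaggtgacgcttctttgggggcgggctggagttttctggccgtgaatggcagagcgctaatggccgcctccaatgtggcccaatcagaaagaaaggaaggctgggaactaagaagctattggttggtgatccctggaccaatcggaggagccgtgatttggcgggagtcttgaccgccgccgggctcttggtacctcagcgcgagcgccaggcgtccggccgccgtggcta
RRM2: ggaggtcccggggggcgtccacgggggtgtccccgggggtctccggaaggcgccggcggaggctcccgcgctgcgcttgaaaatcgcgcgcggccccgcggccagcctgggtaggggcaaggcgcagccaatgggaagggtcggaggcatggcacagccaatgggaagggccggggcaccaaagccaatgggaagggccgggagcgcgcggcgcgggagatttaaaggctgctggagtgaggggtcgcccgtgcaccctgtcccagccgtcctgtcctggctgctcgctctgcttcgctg
CDC6: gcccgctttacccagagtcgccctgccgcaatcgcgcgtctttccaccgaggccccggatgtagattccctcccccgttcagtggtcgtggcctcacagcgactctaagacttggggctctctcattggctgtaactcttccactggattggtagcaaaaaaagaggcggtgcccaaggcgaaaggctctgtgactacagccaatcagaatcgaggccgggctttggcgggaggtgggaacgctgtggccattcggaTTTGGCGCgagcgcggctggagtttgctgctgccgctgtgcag
MCM2: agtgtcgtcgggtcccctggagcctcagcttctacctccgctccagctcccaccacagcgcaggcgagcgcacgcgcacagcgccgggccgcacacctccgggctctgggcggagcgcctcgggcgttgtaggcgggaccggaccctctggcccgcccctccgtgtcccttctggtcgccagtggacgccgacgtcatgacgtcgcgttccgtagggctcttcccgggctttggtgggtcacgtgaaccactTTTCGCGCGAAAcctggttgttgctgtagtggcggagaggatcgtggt
MCM6: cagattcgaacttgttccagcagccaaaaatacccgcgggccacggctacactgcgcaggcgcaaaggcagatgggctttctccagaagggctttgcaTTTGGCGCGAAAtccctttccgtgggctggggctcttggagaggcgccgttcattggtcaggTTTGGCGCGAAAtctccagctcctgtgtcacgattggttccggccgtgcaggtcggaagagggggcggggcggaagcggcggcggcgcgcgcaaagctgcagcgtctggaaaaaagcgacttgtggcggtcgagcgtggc
MCM7: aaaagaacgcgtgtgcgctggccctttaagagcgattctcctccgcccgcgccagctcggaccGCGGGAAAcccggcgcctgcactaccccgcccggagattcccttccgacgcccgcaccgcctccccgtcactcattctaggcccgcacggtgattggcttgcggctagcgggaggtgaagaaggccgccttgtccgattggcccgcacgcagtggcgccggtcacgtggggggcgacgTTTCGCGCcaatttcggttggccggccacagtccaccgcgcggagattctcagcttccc
POLA1: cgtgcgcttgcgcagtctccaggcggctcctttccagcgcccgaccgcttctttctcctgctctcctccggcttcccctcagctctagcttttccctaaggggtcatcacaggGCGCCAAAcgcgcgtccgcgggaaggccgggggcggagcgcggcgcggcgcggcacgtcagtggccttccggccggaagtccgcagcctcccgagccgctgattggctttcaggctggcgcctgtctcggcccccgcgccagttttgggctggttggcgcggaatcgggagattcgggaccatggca

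H3K4me3 was found at an end of nearly every replication gene. A peak came within 1 kb of either end of the annotated gene at 40 of 41 members (97.6%, exact 95% interval 87.1 to 99.9), against 49.4% of all protein-coding genes. By role it was 14 of 15 licensing genes, 22 of 22 fork genes and 4 of 4 nucleotide supply genes. The exception was ORC1, the large subunit of the origin recognition complex. Its peak lay inside the annotated gene, over the start that RefSeq's promoter table lists for it. All 38 members with such a listed start had H3K4me3 within 1 kb of a listed start, against 53.5% of protein-coding genes with one. MCM4, MCM5 and GINS4 have no entry in that table. With a −log10 q of at least 10 demanded of the peaks, 21 of 41 members (51.2%) had one at an end, against 22.3% of all protein-coding genes. An H3K4me1 peak came as near to an end at 23 of 41 members (56.1%, interval 39.7 to 71.5), against 42.6% of all protein-coding genes. Within 50 kb the members drew on 89 different H3K4me3 peaks and 317 different H3K4me1 peaks.

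Each member was then described by its lead peak, the longest H3K4me3 peak at an end or, failing that, inside the gene. Its pileup is the caller's coverage signal, and its fold is the caller's enrichment ratio over the local background. Both are the authors' values, averaged over the whole broad peak. The lead peak had a median length of 1648 bp over the members (range 804 to 4671), against 1555 bp over the 10701 protein-coding genes with one (quartiles 1129 and 2122). The median pileup was 15.87 for the members and 13.53 for all such genes (quartiles 10.24 and 17.44). Licensing genes had a median length of 2368 bp (1274 to 3832) and fork genes of 1478 bp (804 to 3473), with nucleotide supply genes at 2190.5 bp (1511 to 4671). Their median pileups were 16.86 for licensing, 12.07 for fork and 17.87 for nucleotide supply genes. Median fold was 5.09, 4.11 and 6.75 in the same order, and 4.56 over all marked genes. The lead peak was longer than the all-gene median at 11 of 15 licensing, 8 of 22 fork and 3 of 4 nucleotide supply genes (49.9% of all marked genes are, by construction). The ranges of the roles overlapped throughout. With a −log10 q of at least 10 demanded, the gap in median pileup between licensing and fork genes was 1.90 in place of 4.80, over the 10 licensing and 9 fork genes that kept a lead peak.

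**Figure D1:**
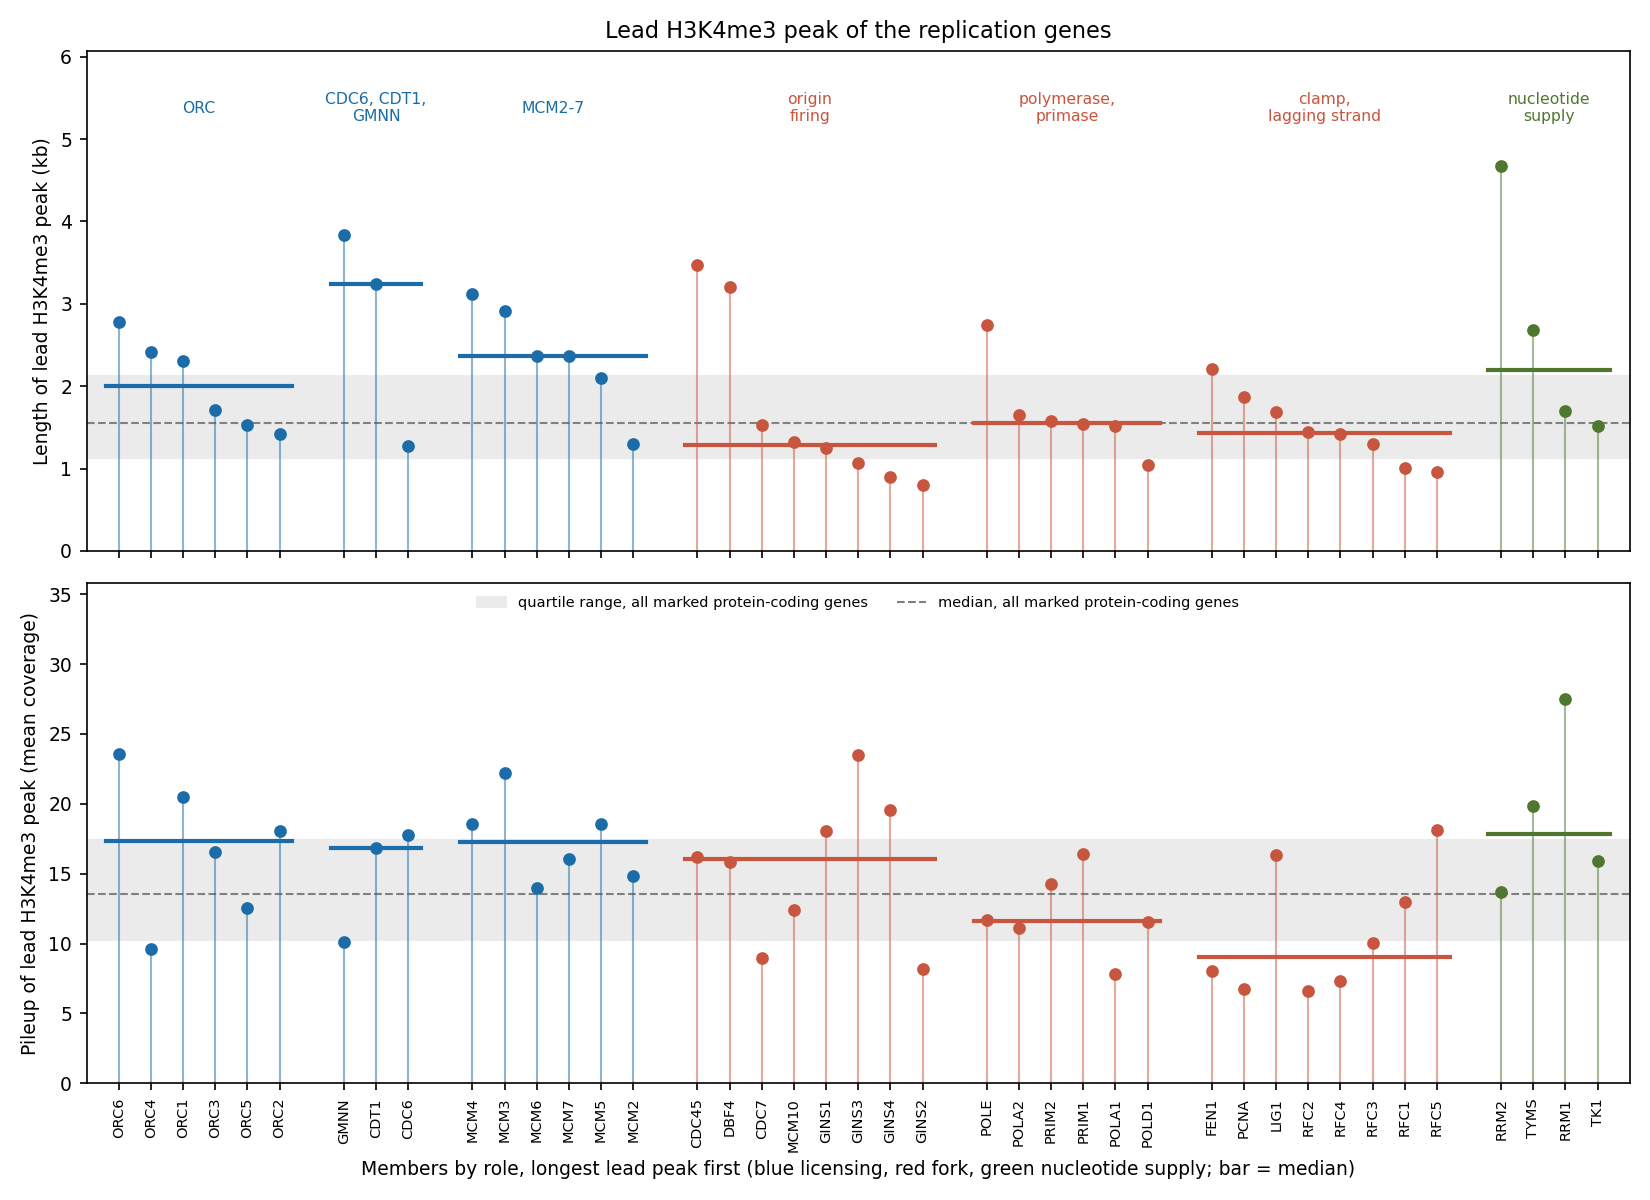
Length (upper panel, kb) and pileup (lower panel, mean coverage) of the lead H3K4me3 peak of each of the 41 replication genes, 1 point per gene, ordered by length within each role; coloured bars are medians and the grey band runs between the quartiles of all marked protein-coding genes. MCM2-7 genes lie mostly above the band in length (median 2369.5 bp), while the clamp and lagging strand genes lie mostly low in pileup (median 9.05).

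Among the licensing genes, the 3 that control helicase loading spanned the whole range. GMNN, the inhibitor, had the longest lead peak of the group, 3832 bp, with a pileup of 10.11 and a fold of 3.24. It began 358 bp upstream of the first listed start and ran 3473 bp into the gene, past the second listed start, whose promoter is printed above. CDT1, the loading factor that GMNN binds, had a peak of 3239 bp with a pileup of 16.86 and a fold of 5.90. CDC6, the ATPase that acts beside it, had the shortest lead peak of the group, 1274 bp, with a pileup of 17.80 and a fold of 4.49. CDC6 thus stood above CDT1 in pileup and below it in fold, and GMNN was the lowest of the 3 in both. All 3 had H3K4me1 on both sides.

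The 6 helicase genes had lead peaks with a median of 2369.5 bp and a median pileup of 17.30. MCM4 had the longest, 3121 bp at chr8:47959184-47962304, with a pileup of 18.57 and a fold of 5.47. MCM3 followed with 2916 bp and the highest pileup of the helicase genes, 22.19, though its fold of 4.26 was the lowest of them. MCM6 had 2371 bp at a pileup of 13.96, MCM7 2368 bp at 16.06 and MCM5 2096 bp at 18.54. MCM2 was the exception in length, with 1304 bp at a pileup of 14.87. Its peak reached 114 bp upstream of the start, and that of CDC6 reached 74 bp, so both lay almost wholly inside the gene.

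The 6 genes of the origin recognition complex had a median length of 2007.5 bp and a median pileup of 17.31. ORC6 had the longest lead peak of them, 2782 bp, and the highest pileup of the licensing genes, 23.60, with a fold of 5.52. ORC4 had 2410 bp but the lowest pileup of the licensing genes, 9.62, with a fold of 3.45. ORC1, at chr1:52403268-52405574, had 2307 bp at a pileup of 20.46. ORC3 had 1708 bp at 16.58, ORC5 1532 bp at 12.55 and ORC2 1424 bp at 18.04. ORC2 nevertheless had the highest fold of the 6, 7.77.

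Fork genes had the shortest peaks of the list and, for part of them, the shallowest. The 8 genes that start the fork had a median length of 1286 bp, made of 2 long peaks and 6 shorter ones. CDC45, a subunit of the active helicase, had 3473 bp with a pileup of 16.20 and a fold of 5.17. Most of it lay upstream, 2531 bp against 941 bp downstream of the start whose promoter is printed above, 1 of 3 listed starts. DBF4, the regulatory partner of CDC7, had 3207 bp with a pileup of 15.87 and a fold of 5.73. CDC7 itself had 1529 bp with a pileup of 8.98 and a fold of 2.13, a fold above that of only 1.4% of all marked genes. MCM10, which helps the helicase start, had 1328 bp at a pileup of 12.42.

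The GINS complex, whose 4 subunits sit on the helicase, had short peaks of very unequal pileup. GINS1 had 1244 bp, GINS3 1065 bp, GINS4 901 bp and GINS2 804 bp, the shortest of all members. Pileup was 23.49 at GINS3, the highest of the fork genes, with a fold of 8.18. It was 19.59 at GINS4, 18.04 at GINS1 and 8.19 at GINS2. The 4 subunits thus covered most of the pileup range of the fork genes (6.60 to 23.49), while all were shorter than the all-gene median.

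The polymerase and primase genes had a median length of 1556.5 bp, close to that of all marked genes, and a median pileup of 11.63. POLE, the catalytic subunit of the leading-strand polymerase, had the longest peak, 2738 bp, with a pileup of 11.71 and a fold of 3.56. POLD1, the catalytic subunit of the lagging-strand polymerase, had the shortest, 1042 bp, with a similar pileup of 11.55. The 4 subunits of the polymerase α-primase complex, which makes the primers, lay between 1517 and 1648 bp. They were POLA1 (1517 bp, pileup 7.83), PRIM1 (1537 bp, 16.39), PRIM2 (1576 bp, 14.26) and POLA2 (1648 bp, 11.09). The PRIM2 peak at the gene end, chr6:57221281-57222856, held the start of RAB23 and no listed start of PRIM2. A second peak inside PRIM2, at chr6:57316701-57318270, had 1570 bp, a pileup of 17.60 and a fold of 7.97. That inner peak held a listed start of PRIM2, with its promoter at chr6:57317380-57317679. The lead values given for PRIM2 are those of the peak at the gene end.

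The 8 clamp and lagging strand genes had the lowest medians of pileup (9.05) and fold (2.97) of the role groups. PCNA, the sliding clamp, had 1871 bp with a pileup of 6.75. That peak, chr20:5126399-5128269, also held the start of CDS2. A longer peak of 3472 bp with a pileup of 11.86 lay inside PCNA, at chr20:5117226-5120697. It held the other listed start of PCNA, with its promoter at chr20:5119909-5120208, but was not the lead peak because it lay away from the ends. Of the clamp loader genes, RFC2 had the lowest pileup of all members, 6.60 over 1439 bp with a fold of 2.53. RFC4 had 7.31 over 1421 bp, RFC3 10.05 over 1298 bp and RFC1 12.94 over 1006 bp. RFC5 was the shortest of them at 953 bp and had the highest pileup, 18.13. FEN1, the flap nuclease, had 2214 bp at a pileup of 8.04. LIG1, the ligase that seals the lagging strand, had 1685 bp at 16.36. Without PRIM2 and PCNA, an alternative added after the data were seen, fork genes as a whole had a median of 1430 bp and a pileup of 12.07, and the other roles were not touched.

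The 4 nucleotide supply genes held the longest and the most covered lead peak of the list. RRM2, the small subunit of ribonucleotide reductase, had the longest lead peak of all members, 4671 bp at chr2:10120393-10125063. It reached 2346 bp upstream and 2324 bp downstream of the listed start whose promoter is printed above. RRM2 has 2 listed starts in this peak, and the other lies upstream of the one used. It was the only member of at least 4 kb, a length that 3.15% of all marked genes had. Its pileup was 13.66 and its fold 2.91. RRM1, the large subunit, had 1701 bp and the highest pileup of all members, 27.53, with a fold of 8.02. TYMS, thymidylate synthase, had 2680 bp at a pileup of 19.84 and the highest fold of all members, 8.60. TK1, thymidine kinase, had 1511 bp at 15.89 and a fold of 5.49. MCM4 and GINS4 lie on chromosome 8, where pileup divided by fold at the lead peaks of marked genes had a median of 3.54. On the other chromosomes it was 2.79. This quotient is only a stand-in for the local background and is not a measured coverage. It was 3.39 at MCM4 and 2.98 at GINS4, against a median of 2.90 over the members.

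**Figure D2:**
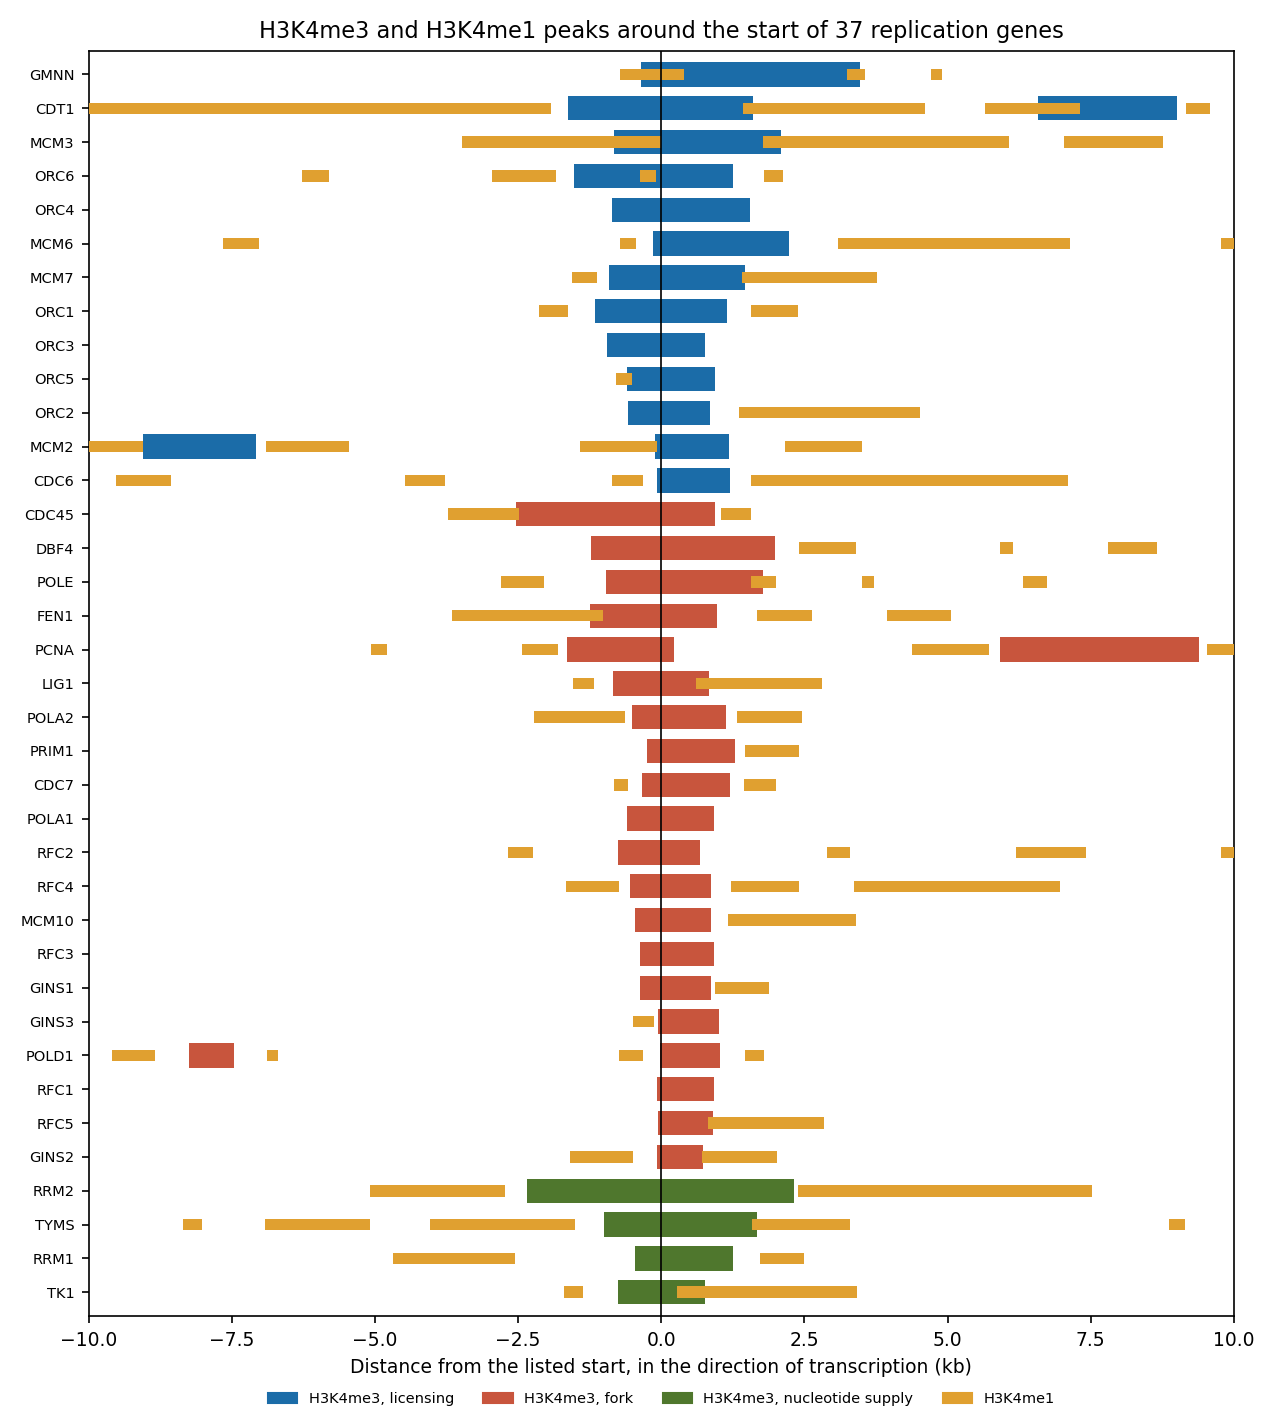
H3K4me3 peaks (wide bars, coloured by role) and H3K4me1 peaks (narrow orange bars, drawn on top) within 10 kb of the listed start of the 37 members whose lead peak holds that start; the x axis is distance in kb in the direction of transcription, and genes run from longest to shortest lead peak within each role. An H3K4me1 peak crosses the start at GMNN alone among the 37, H3K4me1 overlaps 38.8% of the H3K4me3 bar at MCM3 and 32.3% at TK1, and ORC3, ORC4, POLA1, RFC1 and RFC3 show none next to the bar.

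H3K4me1 beside the lead peak was read in the 2 kb beyond each edge. It touched both flanks at 23 of 41 members (56.1%, interval 39.7 to 71.5), 1 flank at 13 and neither at 5; over all marked genes 59.7% had both and 10.2% neither. Both flanks were covered at 11 of 15 licensing genes (73.3%, interval 44.9 to 92.2), 9 of 22 fork genes (40.9%, 20.7 to 63.6) and 3 of 4 nucleotide supply genes. The intervals of licensing and fork genes overlapped. All 6 helicase genes and all 3 loading genes had both flanks, as did 2 of 6 origin recognition genes (ORC1 and ORC6). Among fork genes these were CDC45, CDC7, GINS2, POLA2, POLD1, POLE, RFC4, FEN1 and LIG1. MCM3 had H3K4me1 over the full 2 kb on both sides, and CDT1 over 1705 and 2000 bp. RRM2 had 1623 bp upstream and 1942 bp downstream, TYMS 1504 and 1611 bp. RRM1 had none upstream, where the nearest H3K4me1 peak began 2107 bp from the edge. The H3K4me1 list had a median −log10 q of 2.27, and with at least 10 demanded of both lists 0 members had both flanks. The share of all marked genes was not computed at that threshold, so this count shows nothing particular to the members.

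The 5 members with H3K4me1 on neither flank were ORC3, ORC4, POLA1, RFC1 and RFC3. POLA1, the catalytic subunit that extends primers, stood alone on a stretch of the X chromosome. It had 0 H3K4me1 peaks within 50 kb, the nearest lying 194544 bp upstream and 354238 bp downstream of its lead peak. Its H3K4me3 peak at chrX:24693318-24694834 had a pileup of 7.83, above that of 9.4% of marked genes. The fold of that peak was 3.83, above that of 33.3% of them. At RFC3 the gaps were 30480 bp upstream and 768893 bp downstream. At RFC1 they were 86815 and 10107 bp, at ORC4 26438 and 36418 bp and at ORC3 13483 and 65648 bp. ORC5 had H3K4me1 upstream and a gap of 832551 bp downstream. DBF4 had it downstream and a gap of 533276 bp upstream.

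With strand taken from the listed starts, the upstream flank was touched at 25 of 38 members (65.8%, against 68.6% of all marked genes) and the downstream flank at 29 of 38 (76.3%, against 79.8%). The lead peak reached farther downstream than upstream of the start at 28 of 37 members (75.7%, against 73.6%). Where a lead peak held several listed starts, 1 of them was used, and the reach depends on which. The median reach was 597 bp upstream and 1021 bp downstream for the members, and 583 and 948 bp for all marked genes. In these respects the members were close to marked genes in general. By position, H3K4me3 lay over the base 1000 bp downstream of the start at 76.9% of 13 licensing genes and 35.0% of 20 fork genes, against 45.7% of 7515 marked genes. From 750 to 1750 bp downstream of the start, H3K4me1 was the more frequent in fork genes. It lay over the base 1750 bp downstream at 5 of 13 licensing genes (38.5%) and 12 of 20 fork genes (60%), against 43.0% of marked genes. Farther downstream it was the reverse, with the base 3500 bp downstream covered at 8 of 13 licensing genes (61.5%) and 1 of 20 fork genes (5.00%), against 22.7% of marked genes. On the upstream side, H3K4me1 lay over the base 500 bp from the start at 5 of 13 licensing genes (38.5%) and 2 of 20 fork genes (10%). Of marked genes, 26.2% had it there. These positions were chosen after the profile was seen.

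**Figure D3:**
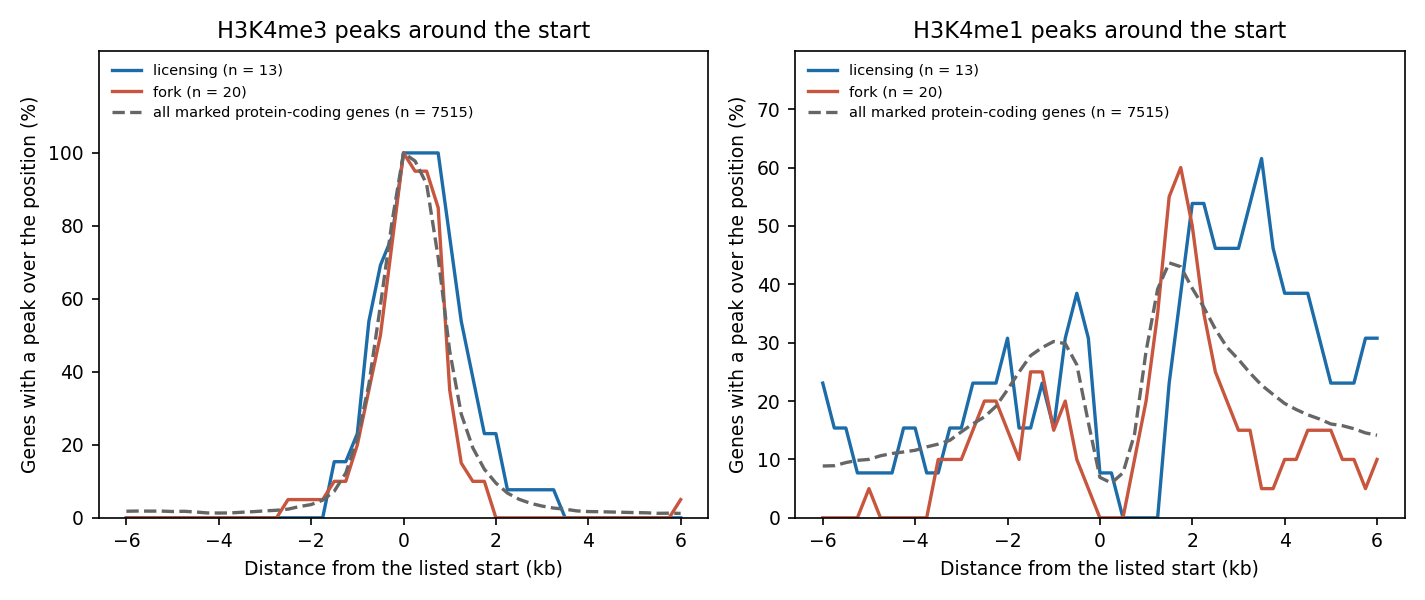
Share of genes (%) with an H3K4me3 peak (left) or an H3K4me1 peak (right) over each position, every 250 bp from 6 kb upstream to 6 kb downstream of the listed start, for licensing genes, fork genes and all marked protein-coding genes whose lead peak holds the start. The H3K4me3 curve of the licensing genes extends farther downstream than that of the fork genes. Downstream of the start the H3K4me1 curves cross: at 1750 bp they stand at 38.5% for licensing and 60% for fork genes, and at 3500 bp at 61.5% and 5.00%. At 500 bp upstream they stand at 38.5% for licensing and 10% for fork genes.

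Distal H3K4me1 peaks, those clear of H3K4me3 and of every gene end, had a median of 4 per member over the gene and 50 kb on each side, against 3 over all protein-coding genes and 4 over the marked ones. The median was 4 for licensing, 4 for fork and 5.5 for nucleotide supply genes, and 8 for the 6 helicase genes. PRIM2 and RFC2 had 12 each, the most of any member, and MCM2, MCM6, POLE and TYMS had 9 each. The stretch searched grows with the gene, which spans 425311 bp at PRIM2 and 22898 bp at RFC2. ORC5, POLA1 and LIG1 had 0. Inside the genes, H3K4me1 covered a median of 10.5% of the span of licensing genes, 4.25% of fork genes and 17.3% of nucleotide supply genes, against 7.45% of marked genes. CDT1 led with 58.3% of a short gene, followed by CDC6 with 45.2%, RFC2 with 42.3% and MCM4 with 39.2%. ORC5, GINS3, POLA1 and RFC3 had none.

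Some members bordered long H3K4me1 stretches. The longest within 50 kb, 19293 bp, began 1549 bp beyond the far end of TYMS, at chr18:675127-694419. CDC6 lay beside a row of them: a peak of 16027 bp at chr17:40302613-40318639 covered its far end, and peaks of 11855 and 10790 bp followed within 50 kb. A peak of 12705 bp ended 1925 bp before the start of CDT1, at chr16:88789160-88801864. The 12150 bp peak counted for CDC45 lay 49909 bp away, at the edge of the reach. None of these was assigned to a gene by the files.

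Lead peaks shared head to head with a neighbour were counted next, because a shared peak covers the starts of both genes. A lead peak held the divergent start of another protein-coding gene, at any distance within the peak, at 10 of 37 members (27.0%). This was so at 21.9% of marked genes. Only neighbours with a listed start could be found, and 15842 of 20037 protein-coding genes have one. Both shares are therefore minimums, and a lead peak counted as unshared may hold an unlisted start. The pairs were ORC1 with PRPF38A (179 bp between the starts), ORC3 with RARS2 (148 bp), ORC4 with MBD5 (274 bp), ORC6 with VPS35 (481 bp), MCM7 with AP4M1 (40 bp) and, among nucleotide supply genes, TK1 with AFMID (158 bp). Among fork genes they were DBF4 with SLC25A40 (133 bp), POLE with PXMP2 (245 bp), PCNA with CDS2 (386 bp) and FEN1 with TMEM258 (312 bp). At these members the H3K4me3 signal cannot be told apart between the pair. Shared lead peaks had a median of 2337.5 bp and the other 27 of 1517 bp; over all marked genes the medians were 1989.5 and 1522 bp. Without the 10 head-to-head members, and with all others kept, licensing genes had a median of 2233.5 bp and fork genes of 1374.5 bp, a gap of 859 bp in place of 890 bp. With MCM4, MCM5, GINS4 and PRIM2 also left out, since no listed start of theirs lies in the lead peak, the licensing median was 1951.5 bp and the gap 577 bp.

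Sequence around the starts was searched for the E2F words on both strands. At least 1 word was present at 19 of 38 members (50%), against 5.40% of the 15842 protein-coding genes with a promoter sequence and 7.33% of those with H3K4me3. By role it was 8 of 13 licensing genes (CDC6, CDT1, GMNN, MCM2, MCM3, MCM6, MCM7 and ORC3), 10 of 21 fork genes (CDC7, GINS1, GINS2, GINS3, LIG1, PCNA, POLA1, POLA2, POLE and RFC3) and 1 of 4 nucleotide supply genes (TYMS). Words overlapped each other on opposite strands in MCM2 and, at 2 places, in MCM6, as the runs of capitals above show. In CDC6 the word began 7 bases after the start, in MCM2 2 bases after it, and in GMNN 80 bases before the second listed start. A member could have several listed starts, each searched. Where these letters are missing, as in the printed CDC45 and RRM2 promoters, nothing follows about E2F binding.

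**Figure D4:**
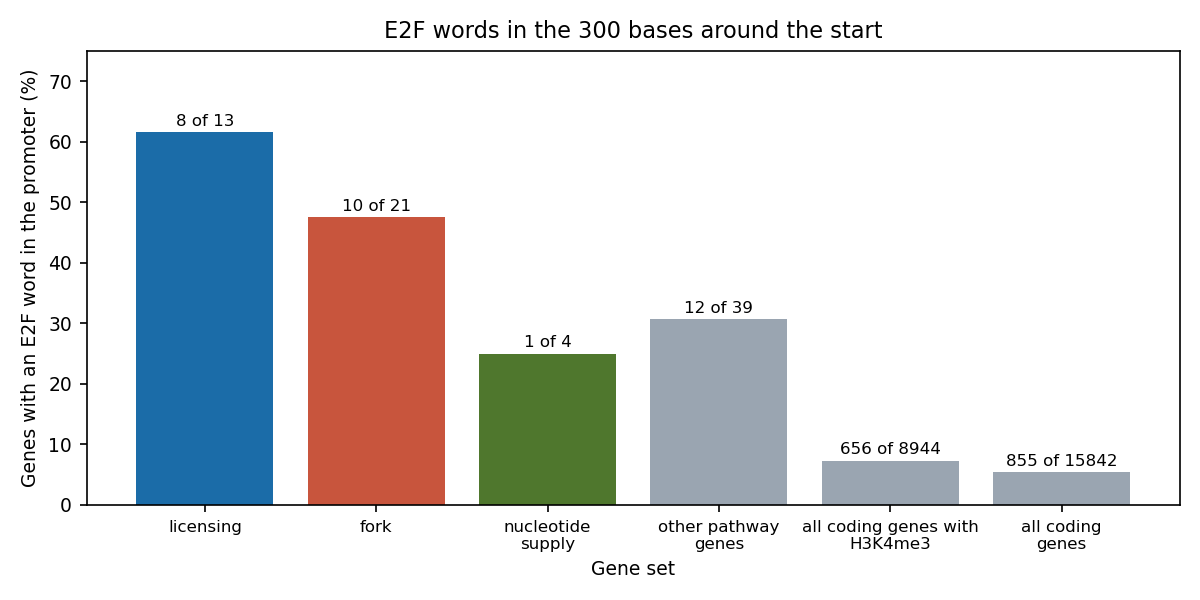
Share of genes (%) whose 300 bases around a listed start hold at least 1 of the 4 E2F words on either strand, by gene set; the numbers over the bars are genes with a word of genes with a promoter sequence. Bars stand at 61.5% for licensing, 47.6% for fork, 25% for nucleotide supply, 30.8% for other pathway genes, 7.33% for all coding genes with H3K4me3 and 5.40% for all coding genes.

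The marks were then read with and without an E2F word. The 19 members with a word had a median lead peak of 1685 bp and a median pileup of 14.87, and the 19 without had 1537 bp and 14.26. Both flanks carried H3K4me1 at 13 of 19 with a word and 8 of 19 without. Over all marked genes the median length was 1708 bp with a word and 1553.5 bp without. Their median pileup was 13.18 with a word and 13.46 without, the opposite order to the members, and both flanks carried H3K4me1 at 60.5% and 58.8% of them. A CCAAT box was present at 22 of 38 members (57.9%, against 42.1% of all and 44.1% of marked genes). A GC box (GGGCGG) was present at 28 of 38 (73.7%, against 64.3% and 77.1%). The cell cycle homology words TTTGAA or TTCGAA were present at 3 of 38, DBF4, MCM6 and RRM1 (7.89%, against 17.5% and 15.6%). The promoters held a median of 31 CpG per 300 bases in the members and 28 in marked genes.

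The other genes of the pathway were taken from a list of 51, with polymerase and RPA subunits, fork protection factors, histone chaperones, further nucleotide enzymes and E2F genes. H3K4me3 was at an end of 48 of them, against 49.4% of all protein-coding genes. RPA3, a subunit of the single-strand binding protein, had it inside the gene. POLE4, a small polymerase ε subunit, and GMNC, a geminin relative known from multiciliated cells, had none. The median lead peak was 1770 bp and the median pileup 13.19. The longest were at the histone chaperone ASF1A (3831 bp), E2F3 (3805 bp) and deoxycytidine kinase DCK (3496 bp). H3K4me1 was on both flanks of 35 of the 49 with a lead peak, against 59.7% of all marked genes, and at an end of 37 of 51, against 42.6% of all protein-coding genes. An E2F word was found at 12 of the 39 with a promoter sequence (30.8%).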

How the data were processed

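ChIP-seq for H3K4me3 and H3K4me1 was carried out in ALL-SIL, with 1 library per mark and 1 input library, grouped by the sample titles. Per the file headers, MACS2 2.1.0.20150731 made the peak calls with its broad option, at a q of 0.1 (broad) and 0.05 (strong), keeping 1 read per position. Per the same headers, both ChIP libraries used the input as control, with the local background taken over 1000 and 10000 bp. The build is GRCh38, per the submitters' processing notes. The libraries held 32712237 tags for H3K4me3, 37178510 for H3K4me1 and 19953801 for the input, per the file headers. The deposited peak tables give for each peak a pileup (a coverage signal), a fold ratio over the local background and the −log10 of p and q, which are the authors' means over the broad region and were used within 1 list. Depth behind single positions is not in these lists, the tables hold no read counts, and the aligner's version is not given in the sources used here.

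From these tables the peaks at the ends (1 kb on each side), inside and within 50 kb of each member were taken with Python 3.11.15, pandas 2.3.3, numpy 2.4.6 and scipy 1.17.1. Gene spans came from the RefSeq annotation of GRCh38 (20037 protein-coding and 18303 lncRNA genes), and strand and starts from RefSeq promoters of GRCh38.p14 (38 of 41 members, 15842 protein-coding genes). The lead peak, flanks of 2 kb, distal peaks and head-to-head pairs were set as the text defines them. Intervals given on shares are exact (Clopper-Pearson) 95% intervals. All members are named. In each role, full values with fold were planned for the 3 longest and 2 shortest lead peaks, and the highest and lowest pileup. They were also planned for members with no H3K4me3 at an end or no H3K4me1 on either flank. Length and pileup are given for every member, but fold for only some of these. The promoters shown are the longest of each role and members with an E2F word or a head-to-head neighbour, 8 in all. The members and lists were chosen with earlier results of these data known. Alternatives changed peak thresholds, windows, overlaps, flank widths and reach. The input has no peak list here and entered through the caller.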

Additional observations from a re-analysis of the deposited data

How the results depend on the processing

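With 1 library per mark there is no replicate to leave out, and the cause of a shift was not tested unless its construction shows it. Of 155 values recomputed, 116 moved by less than the interval or the 1.5-fold margin used and 39 moved. A reversal was scored only for the licensing minus fork gaps in median length and pileup, and 0 of these reversed. The order of the roles was not scored for end counts, flank counts or distal peaks. No paired analysis was possible because each group has 1 sample and no result comes from a test. Under a minimum −log10 q of 10, an end peak was left at 21 members, 9 licensing and 9 fork genes; the upper part of the list by q kept 24 members (58.5%, against 25.7% of all protein-coding genes) and 10 fork genes. Fewer peaks were then available. The gap in median length between licensing and fork genes was 577 bp without head-to-head members or members with no listed start in the lead peak, an alternative added after seeing the data, and 859 bp without head-to-head members alone. Median pileup at a −log10 q of at least 10 was 18.04 over the members and 16.39 over fork genes, and the licensing minus fork gap 1.90. In the upper part of the list these were 17.80, 16.38 and 1.54. H3K4me1 on both flanks was found at 0 members, 0 licensing, 0 fork and 0 nucleotide supply genes at that q. In the upper part of both lists it was 3, 2, 0 and 1, and with the H3K4me1 list shortened to the length of the H3K4me3 list 1, 0, 1 and 0. With 50% of each flank covered it was 7 members, 3 licensing and 2 fork genes. The share of all marked genes with both flanks was not computed under these settings. The median of distal H3K4me1 peaks was 2 over members, 2 over licensing and 1.5 over fork genes in the upper part of the list. It was 0 for members and for each role with the H3K4me1 list shortened in that way. It was 2 for fork genes within 25 kb and 7 for members within 100 kb, and 8 for members, 9 for licensing and 9.5 for nucleotide supply genes with all H3K4me1 peaks counted.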
